A study of Mus musculus with 6 samples.

Results

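The BCL2 family decides whether a cell's mitochondria stay intact or release the factors that start its death, and 10 of its genes were followed here in sorted melanocyte stem cells of the mouse. The list of genes was drawn up with earlier results of these data known. Its probes were taken by gene name, not by measured values: those whose RefSeq accession belongs to Bcl2, Bcl2l1, Bcl2l2, Mcl1, Bax, Bak1, Bid, Bad, Bcl2l11 or Bbc3. They were 15 of the 55681 probes on the array and 10 of 21368 genes that could be named. All 15 were well above background on all 6 arrays, so no member was lost to the filter on dim probes. The question was whether these survival and death genes are expressed at other levels in K14-SCF transgenic (Tg) than in wild-type (WT) mice.

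The 6 samples were 3 WT and 3 K14-SCF Tg samples from skin of male mice, each hybridised to an array of its own. Of these 6 arrays the first slide held WT replicate 1 alone. Replicate 3 of either genotype lay in row 2 of the other slide, while the remaining 4 arrays lay in row 1. In both genotypes cells with green fluorescent protein (GFP) and low side scatter were sorted as melanocyte stem cells, so WT mice too carried a source of GFP, whose promoter the labels do not give, and they name neither the age nor the strain of the mice. In K14-SCF mice the promoter of keratin 14, active in basal keratinocytes, drives SCF (stem cell factor), which binds and activates KIT, so the transgene acts on the sorted cells from outside. The labels do not say whether the 3 samples of a genotype came from separate animals, and the p-values then describe the spread of these samples alone, part or all of which may be technical.

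Proteins of the family act in 3 layers. The guardians BCL2, BCL-XL (Bcl2l1), BCL-W (Bcl2l2) and MCL1 hold death proteins in check. The effectors BAX and BAK (Bak1) form the pores of the outer mitochondrial membrane when released. The BH3-only proteins BID, BAD, BIM (Bcl2l11) and PUMA (Bbc3) sense damage, loss of growth factor or death receptor signals and neutralise the guardians or engage the effectors. In the pigment lineage BCL2 is known as a factor without which melanocyte stem cells are lost and hair turns grey, MITF is known to drive its gene, and signalling from KIT through the MAP kinases is known to restrain BIM. Much of the family's control lies in protein stability and phosphorylation, which an RNA measurement does not see.

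The stretch before the start site of 4 members is shown because these are the genes whose control is best known in this setting: Bcl2 as the MITF-driven guardian, Bax and Bbc3 as genes of the p53 response, and Bcl2l11 as a gene of the FOXO factors. Sequences were taken from RefSeq (GRCm38.p6), a later build than the mm9 of the array design, run 5′ to 3′ in the direction of the gene and cover the 250 bases that end at the annotated start. Capitals mark matches, on either strand, to the E-box CACGTG, the E-box CATGTG, the FOXO motif GTAAACA, the cyclic AMP motif TGACGTCA, the GC box GGGCGG and the p53 half-site. Bcl2l11 has 2 such windows and Bbc3 has 3, of which the 1 with the FOXO motif is printed for each. Of the windows not printed, the second of Bcl2l11 held 2 GC boxes, the first of Bbc3 held 5, and the third of Bbc3 held CACGTG and 7 GC boxes.
Bcl2 (chr1:106714291-106714540, minus strand): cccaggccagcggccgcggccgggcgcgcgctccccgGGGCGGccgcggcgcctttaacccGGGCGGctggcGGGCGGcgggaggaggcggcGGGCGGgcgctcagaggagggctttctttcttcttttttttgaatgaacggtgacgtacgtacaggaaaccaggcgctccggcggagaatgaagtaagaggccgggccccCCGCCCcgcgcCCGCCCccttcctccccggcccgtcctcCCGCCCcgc
Bax (chr7:45466899-45467148, minus strand): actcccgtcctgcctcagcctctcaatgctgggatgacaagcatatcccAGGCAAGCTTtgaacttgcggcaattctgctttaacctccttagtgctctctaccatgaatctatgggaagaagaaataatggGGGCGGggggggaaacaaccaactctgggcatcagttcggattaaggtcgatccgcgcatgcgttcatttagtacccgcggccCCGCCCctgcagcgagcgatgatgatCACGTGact
Bcl2l11 (chr2:128125788-128126037, plus strand): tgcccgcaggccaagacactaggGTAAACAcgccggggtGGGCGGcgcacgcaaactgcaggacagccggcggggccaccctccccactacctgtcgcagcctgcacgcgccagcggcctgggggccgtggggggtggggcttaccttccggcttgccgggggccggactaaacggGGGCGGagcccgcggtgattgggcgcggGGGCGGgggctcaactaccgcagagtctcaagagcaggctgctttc
Bbc3 (chr7:16310011-16310260, plus strand): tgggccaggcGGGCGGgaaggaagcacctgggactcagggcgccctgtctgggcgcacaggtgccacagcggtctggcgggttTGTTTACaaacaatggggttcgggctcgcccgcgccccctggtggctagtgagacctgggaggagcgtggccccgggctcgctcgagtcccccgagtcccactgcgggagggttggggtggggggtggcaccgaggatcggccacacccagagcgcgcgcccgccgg

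The Bcl2 window held 7 GC boxes and none of the other motifs, with a GC content of 74.8% against a median of 52.4% over the 32851 windows of the table. The Bax window held CACGTG with its first base 9 bases before the start and a p53 half-site 201 bases before it. The Bcl2l11 window held the FOXO motif 227 bases before the start, and the Bbc3 window held it on the other strand 167 bases before the start. Over the 16 windows of the 10 members, 11 held a GC box, 2 CACGTG, 1 CATGTG (in Bcl2l1), 2 the FOXO motif, 0 the cyclic AMP motif and 1 the p53 half-site. Among all windows the share with a match was 32.7% for the GC box, 6.02% for CACGTG, 12.3% for CATGTG, 3.17% for the FOXO motif, 1.55% for the cyclic AMP motif and 7.13% for the p53 half-site. Overlapping matches were counted separately. A match is a run of letters and not a measured binding site.

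Levels are on a log2 scale relative to the 75th percentile of the processed signals of the same array, so 0 is the level of that percentile. Log2 fold changes are differences of means on this scale, Tg minus WT, and levels of different probes were not set against each other, since probes differ in how strongly they bind. Where a gene had several probes, the one with the higher mean over all arrays represents it and is named the first probe. The genotypes were compared with limma over all 47726 probes that passed the filter, with Benjamini-Hochberg adjustment over all of them.

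None of the 10 members differed between the genotypes by this test: 0 were higher and 0 were lower at an adjusted p under 0.05, where 0.00544% of the 18381 genes tested were called. The 1 called gene was Hpse, which encodes heparanase (limma, adjusted p = 0.0200). Hpse was above background on all 3 Tg arrays and on none of the WT arrays, so it passed the filter through the Tg arrays alone. Its second probe was not called (adjusted p = 0.414), and the call stood in 5 of 18 alternatives. At an unadjusted p under 0.05 limma likewise gave 0 of 10 members and 0 of 15 probes, against 5.36% of all genes and 5.47% of all probes. The log2 fold changes of the 15 probes ran from -0.53 to 0.57, with adjusted p-values between 0.955 and 1.00. The median over the 10 members was -0.16, with 3 members positive and 7 negative, against a median of -0.01 over all genes. The median without regard to sign was 0.20 for the members and 0.29 for all genes.

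**Figure D1:**
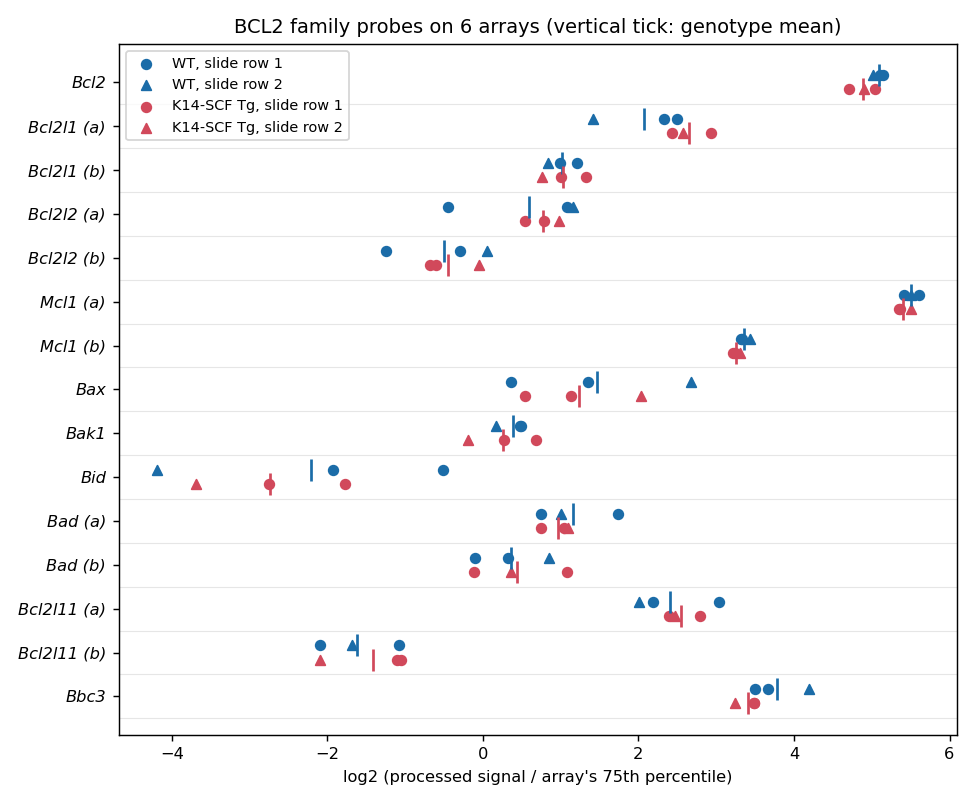
Level of each of the 15 probes of the BCL2 family (vertical axis) on each array, on the log2 scale relative to the 75th percentile of its array (horizontal axis). Circles are arrays in row 1 of a slide, triangles the 2 arrays in row 2, and the vertical tick is the mean of 3 arrays of a genotype; (a) is the first and (b) the second probe of a gene. The genotypes overlap at every probe but Mcl1 (b) and Bbc3, and positions of different probes are not comparable.

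Among the guardians, Bcl2 stood at 5.11, 5.15 and 5.01 on WT replicates 1 to 3 and at 4.70, 5.05 and 4.89 on Tg replicates 1 to 3. The highest Tg array lay within the WT range and the other 2 below it. Its mean was 5.09 ± 0.07 in WT and 4.88 ± 0.17 in Tg (SD, n = 3 each), a log2 fold change of -0.21 (SE 0.21) and a 95% interval from -0.73 to 0.32 (limma, adjusted p = 0.987). On the linear scale this is 0.865 times the WT level, with an interval from 0.601 to 1.25, so a halving or a doubling of Bcl2 RNA lay outside the interval. The spread of Bcl2 between replicates (pooled SD 0.13) was smaller than the median of 0.31 among the brightest 25% of probes, to which it belongs.

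Mcl1, a guardian whose protein turns over quickly, was measured by 2 probes that gave nearly the same difference. The first stood at 5.61, 5.41 and 5.51 on the WT arrays and at 5.34, 5.37 and 5.51 on the Tg arrays, a log2 fold change of -0.10 (SE 0.21) and a 95% interval from -0.61 to 0.40. The second stood at 3.32, 3.33 and 3.43 in WT and at 3.21, 3.24 and 3.31 in Tg, a log2 fold change of -0.11 (SE 0.20). At the second probe every Tg array lay below every WT array, by a gap of only 0.01, while at the first the genotypes overlapped. Genotypes did not overlap, with Tg lower, at 4.59% of all tested probes. The replicate spread of Mcl1 was among the narrowest on the arrays: pooled SDs of 0.09 and 0.06 lay at percentiles 5.32 and 0.888 of the brightest 25% of probes.

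Bcl2l1, which encodes BCL-XL, had the largest positive difference of the 10 members, and 1 WT array carried much of it. The first probe stood at 2.32, 2.49 and 1.41 on the WT arrays and at 2.94, 2.43 and 2.57 on the Tg arrays, and WT replicate 3 was the low array. The log2 fold change was 0.57 (SE 0.36) (95% interval -0.31 to 1.45, limma adjusted p = 0.955), and 0.24 without WT replicate 3. The second probe, assigned to the RefSeq transcript NM_001289716 where the first has NM_009743, gave 0.02 with an SE of 0.25 and turned to -0.075 under median centring. On it WT replicate 3, at 0.84, lay close to the other WT arrays (0.99 and 1.21).

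Bcl2l2, which encodes BCL-W, was low on 1 WT array at both of its probes. The first stood at -0.45, 1.08 and 1.15 in WT and at 0.79, 0.55 and 0.97 in Tg, and the second at -1.24, -0.30 and 0.06 in WT and at -0.61, -0.69 and -0.05 in Tg. WT replicate 1, which shared its slide with no other array of the series, was the lowest of the 6 at both probes. The log2 fold changes were 0.17 (SE 0.48) and 0.05 (SE 0.41). Without WT replicate 1, which equals slide as a block, they were -0.35 and -0.33, and the second probe turned to -0.047 under median centring.

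The effector Bax, a gene of the p53 response, varied by more within each genotype than between them. It stood at 0.37, 1.35 and 2.67 on the WT arrays and at 0.55, 1.13 and 2.04 on the Tg arrays, and in both genotypes replicate 3 was the highest. Its mean was 1.46 ± 1.16 in WT and 1.24 ± 0.75 in Tg (SD, n = 3 each), a log2 fold change of -0.22 (SE 0.68). The 95% interval ran from -1.90 to 1.46, so differences of more than 2-fold in either direction lay within it. With the slide row as a block the SE of Bax was 0.38 and the interval ran from -1.22 to 0.77. Its pooled SD of 0.98 lay at percentile 97.7 of the brightest 25% of probes.

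Bak1, the other effector, was measured more tightly. It stood at 0.48, 0.49 and 0.17 in WT and at 0.68, 0.27 and -0.19 in Tg, with replicate 3 the lowest in both genotypes. The log2 fold change was -0.13 (SE 0.30) and a 95% interval from -0.86 to 0.60 (limma, adjusted p = 0.998), so a 2-fold difference lay outside it.

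Of the BH3-only genes, Bbc3 (PUMA) had its genotypes least mixed. It stood at 3.50, 3.67 and 4.19 on the WT arrays and at 3.48, 3.49 and 3.24 on the Tg arrays. The 2 groups did not overlap, but the highest Tg array lay only 0.01 below the lowest WT array. The mean was 3.79 ± 0.36 in WT and 3.40 ± 0.14 in Tg (SD, n = 3 each), a log2 fold change of -0.38 (SE 0.27) and a 95% interval from -1.04 to 0.28 (limma, adjusted p = 0.970). Without WT replicate 3 the log2 fold change of Bbc3 was -0.18. Bbc3 was the 1 member of 10 whose genotypes did not overlap, against 10.6% of all genes, which is no more than the background.

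Bcl2l11 (BIM), the BH3-only gene tied to KIT signalling, had the first probe at 3.04, 2.19 and 2.00 in WT and at 2.79, 2.39 and 2.47 in Tg. The 3 Tg arrays lay inside the WT range. The log2 fold change was 0.14 (SE 0.34) and a 95% interval from -0.70 to 0.98 (limma, adjusted p = 0.999). The second probe, assigned to the RefSeq transcript NM_001284410 where the first has NM_207680, gave 0.20 (SE 0.42) from -2.09, -1.07 and -1.68 in WT and -1.11, -1.05 and -2.10 in Tg. The probes differed in which arrays were high: WT replicate 1 was the highest of the 6 at the first probe and near the lowest at the second.

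Bad, whose protein is held inactive by growth factor kinases, gave differences of opposite sign at its probes. The first stood at 0.75, 1.74 and 1.00 in WT and at 0.74, 1.05 and 1.09 in Tg, a log2 fold change of -0.20 (SE 0.33). The second stood at -0.10, 0.33 and 0.85 in WT and at -0.11, 1.08 and 0.36 in Tg, a log2 fold change of 0.08 (SE 0.41), which turned to -0.011 under median centring. The genotypes overlapped at both.

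Bid, the BH3-only protein that caspase 8 cleaves, had the widest spread of the 10 members. It stood at -1.92, -0.51 and -4.19 in WT and at -1.77, -2.75 and -3.69 in Tg, and replicate 3 was the lowest in both genotypes. The mean was -2.21 ± 1.86 in WT and -2.74 ± 0.96 in Tg (SD, n = 3 each), a log2 fold change of -0.53 (SE 1.01). The 95% interval ran from -3.02 to 1.96, so a change of several fold in either direction lay within it. With the slide row as a block the SE of Bid was 0.60 and the interval ran from -2.09 to 1.03. Without WT replicate 2 the log2 fold change of Bid was 0.32.

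**Figure D2:**
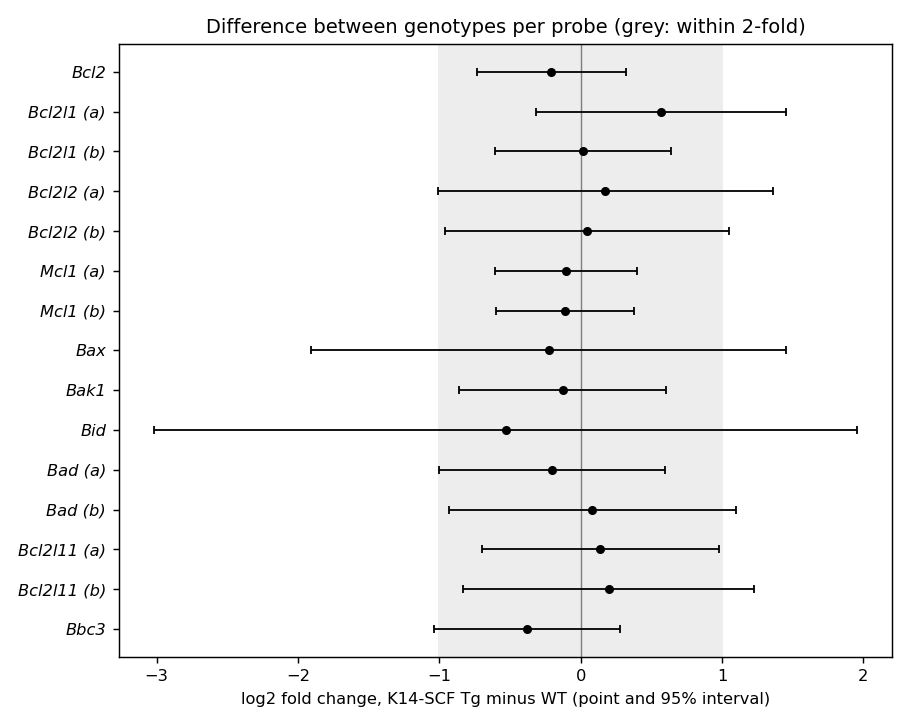
Log2 fold change of each of the 15 probes, K14-SCF Tg minus WT (horizontal axis), as point and 95% interval from limma, with the range of 2-fold in either direction in grey. Every interval includes 0; those of Bcl2, both Mcl1 probes, Bcl2l1 (b), Bak1 and Bcl2l11 (a) lie wholly in the grey range, and that of Bid is the widest.

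How firmly a difference can be bounded varied among the members. At the first probe the 95% interval lay wholly within 2-fold in either direction for 4 of 10 members (Bcl2, Mcl1, Bak1 and Bcl2l11), against 5932 of 18381 genes (32.3%). The second probe of Bcl2l11 was less bounded, with an interval from -0.83 to 1.23. That of Bcl2l1 was more so, from -0.60 to 0.64. Standard errors ran from 0.21 for Bcl2 and Mcl1 to 1.01 for Bid, with a median of 0.33 against 0.38 over all genes.

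The slide row went with the values of several members. At Bax both row 2 arrays (2.67 and 2.04) lay above all row 1 arrays (0.37 to 1.35). At Bak1 and Bid both row 2 arrays lay below all others. These were 3 of 10 members, or 5 of 15 probes with the second probes of Bcl2l1 (low) and Bcl2l2 (high), against 23.7% of genes and 22.2% of probes in the whole table, so the share is near the background. The 75th percentile of the processed signal was 1427 and 1435 on the row 2 arrays and between 1579 and 1690 on the others, and its part in these values was not tested. Row and replicate number cannot be told apart here. With the slide row as a block, an alternative added after the values were seen, the log2 fold changes were the same by construction. With it 0 members were called, and the interval lay within 2-fold for 4 of 10 members, against 36.0% of all genes.

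**Figure D3:**
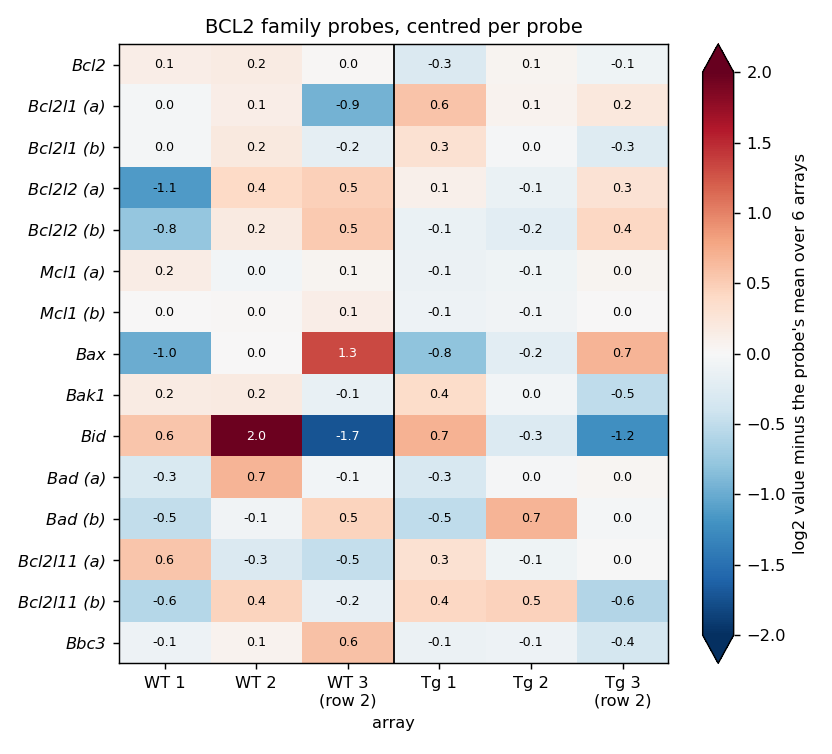
The 15 probes (rows) on the 6 arrays (columns), as log2 value minus the probe's mean over the arrays, from blue (low) to red (high). No block of rows separates WT from Tg: Bax is high and Bid low on both row 2 arrays, Bcl2l2 is low on WT replicate 1 at both probes, and the Mcl1 rows are nearly flat.

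The pathway around the members was described through 5 lists with 85 genes, of which 78 were tested, and by the same test 0 were higher and 0 were lower. Unadjusted p was under 0.05 in 3 of the 78 (3.85%, against 5.36% of all genes), and the genotypes did not overlap in 6 (7.69%, against 10.6%). Adjusted p-values of the 78 lay between 0.789 and 1.00. Of the 7 genes not tested, 2 (Bcl2a1a and Bcl2a1b) had no probe named through RefSeq, 4 (Bcl2l10, Bcl2a1c, Hrk and Naip6) were well above background on 0 arrays, and Bcl2a1d was on 2.

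Among the other BCL2 family genes 0 of 12 tested passed in either direction, with a median log2 fold change of -0.14. Bnip1, which acts in traffic to the endoplasmic reticulum, stood at 0.75, -0.51 and -0.41 in WT and at -2.49, -1.97 and -0.72 in Tg, without overlap. Its log2 fold change was -1.66 (SE 0.58, limma adjusted p = 0.867). Bnip3, a hypoxia gene that marks mitochondria for removal, gave -1.19 (SE 0.64) and -1.09 at its other probe. WT replicate 2 of Bnip3, at 2.47, lay above the other WT arrays (0.52 and 1.06), and without it the log2 fold change was -0.62. Bik, a BH3-only gene, gave 1.57 (SE 1.04), through Tg replicate 2 at -0.31, where the other 5 arrays lay between -4.57 and -3.93, and 0.34 without that array.

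The caspases and mitochondrial death factors (20 of 20 tested, 0 passed, median -0.13) included the inflammatory Casp1 at 1.51 (SE 0.72), the flavoprotein gene Aifm1 at -0.63 (SE 0.32) and Casp12 at 1.13 (SE 0.58). Single arrays moved each of these by over 1.5 times. Casp1 was 0.96 without WT replicate 1 and 2.29 without WT replicate 2. Without Tg replicate 3, Aifm1 was -0.35 and Casp12 was 0.59, and Casp12 was 0.46 under normexp background correction with quantile normalization. Of the inhibitors of apoptosis 0 of 8 passed (median -0.19), with Birc2 (cIAP1) at -0.70 (SE 0.39), which was -0.45 without WT replicate 1, Birc6 at -0.21 (SE 0.26), which was -0.0042 without WT replicate 2 and -0.36 without WT replicate 3, and Naip1 at 0.33 (SE 0.50), which was -0.11 without WT replicate 1. Of the death receptors and their adaptors 0 of 12 passed (median 0.24), with Tnfrsf25 at -1.40 (SE 0.67), which was -0.84 without Tg replicate 1 and -0.91 without WT replicate 1. Cflar, the inhibitor of caspase 8, was at 0.43 (SE 0.30), with 0.36 and 0.73 at its other probes, and at 0.26 without WT replicate 1. The cytokine Tnf, at 1.60 (SE 0.98), was above background on all 3 Tg arrays but only 1 of 3 WT arrays. Its difference came through Tg replicate 1 at -2.37, where the other 5 arrays lay between -6.58 and -5.55. Without that array Tnf was at 0.48, and under normexp with quantile normalization at 0.71.

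Regulators of BCL2 family genes and proteins numbered 26 tested, 0 of which passed, with a median of -0.11, 7 positive and 19 negative. Dynll1, a dynein light chain that binds BIM, stood at -0.63, -0.24 and -0.27 in WT and at 0.61, 0.33 and 0.25 in Tg, without overlap. Its log2 fold change was 0.77 (SE 0.24, 95% interval 0.19 to 1.36), and it did not pass (limma, adjusted p = 0.789). Dynll2, the light chain that binds BMF, gave -0.44 (SE 0.32) and -0.25 at its other probe. It was -0.23 without Tg replicate 2, -0.29 without WT replicate 2 and -0.67 without Tg replicate 1. The MAP kinase target Rps6ka1, a kinase that phosphorylates BAD, gave -1.27 (SE 0.50).

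The transcription factors named above were looked at for their known targets, after their values were seen. Mitf gave -0.16 (SE 0.32), Foxo1 -0.17 (SE 0.22), Foxo3 -0.11 (SE 0.22) and Trp53, the gene of p53, -0.40 (SE 0.44). Trp53 stood at 3.03, 3.30 and 3.99 in WT and at 2.48, 2.86 and 3.78 in Tg. Its genotypes overlapped. Trp53, Mitf and Foxo3 were each higher on both row 2 arrays than on any row 1 array, as was Bax but not Bbc3. Foxo1 was not, since its highest array was WT replicate 1, at 3.45. In the whole table both row 2 arrays lay outside the row 1 range, above or below it, at 23.7% of genes.

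**Figure D4:**
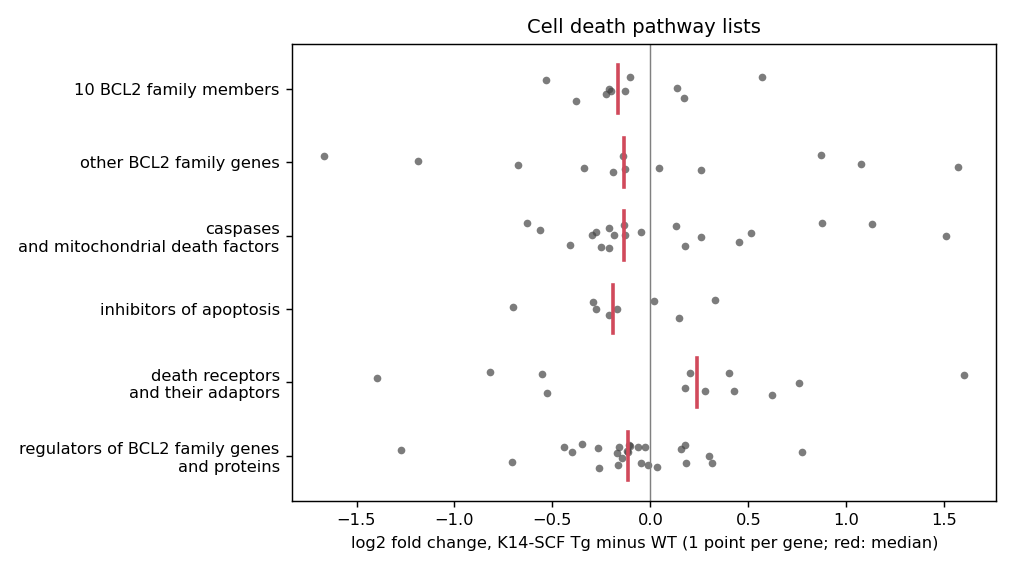
Log2 fold change, K14-SCF Tg minus WT (horizontal axis), of every tested gene of 5 cell death pathway lists and of the 10 members (rows), 1 point per gene at its first probe, with the list's median in red. All points are differences that did not pass the test; the members lie between -0.53 and 0.57, within the spread of each list but the inhibitors of apoptosis, whose values end at 0.33.

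Genes whose values ran most like a member's over the 6 arrays were found by the root mean square difference of mean-centred log2 values, as a description of these arrays. Closest to Bcl2 were Trmt112 (0.04), Dlk2 (0.05) and Eif4b (0.05), and closest to Mcl1 Dnajc19, Brd2 and Siah1a (0.02 to 0.03). Many genes ran as close: 1452 of 18380 lay within 0.2 of Bcl2 and 2086 within 0.2 of Mcl1, since both were nearly flat. Bcl2l11 had 84 genes and Bbc3 had 265 within 0.2. Closest were Gabpb2 (0.07), Pea15a (0.10) and Gtf2ird2 (0.10) to Bcl2l11, and Cog3 (0.07), Coq6 (0.08) and Reep3 (0.08) to Bbc3.

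The arrays as a whole set the limits of these values. Between 43655 (78.4%) and 48532 (87.2%) of 55681 probes were well above background per array and 0 spots were saturated, and the number of arrays limits the precision. All 10 melanocyte lineage markers were well above background on all 6 arrays, Mitf, Sox10, Kit, Dct, Tyr and Pmel among them. Markers of other cells were present too. The summed signal of 7 fibroblast markers, in units of the 75th percentile, was 25.7 to 70.7 on the WT arrays and 8.88 to 22.3 on the Tg arrays, without overlap, with 6 of 7 above background on all 6 arrays and Pdgfra on 5. That of 4 Schwann cell markers was 42.3 to 60.6 in WT and 61.4 to 63.2 in Tg, with 2 of 4 above background on all arrays. Sums of the keratinocyte, leukocyte, endothelial and mast cell lists overlapped between genotypes. The part of these cells in the values of Bbc3, Dynll1 and Bnip1 was not tested, and in bulk RNA fewer cells of a type and less RNA per cell cannot be told apart.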

How the data were processed

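RNA of 3 WT and 3 K14-SCF Tg samples was measured on 1-colour Agilent arrays, read with Agilent Feature Extraction 10.7.1.1 per the file headers and the submitters' processing notes. Per the file headers, the deposited intensity values are processed signals, background-subtracted and detrended within the array but not normalized between arrays, and the flags are 0 or 1 per spot. The authors also deposited a value table in the unit of a linear ratio, each column being the processed signal over 1 constant per array, near its 75th percentile.

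Control spots and outlier spots were left out, spots of a probe averaged, and log2 values taken relative to the array's 75th percentile. The 47726 probes that were well above background on 3 or more of the 6 arrays were tested by limma 3.58.1 in R 4.3.3 (lmFit, eBayes, 2-sided, no covariates, Benjamini-Hochberg over all probes, threshold 0.05). Intervals are 95% intervals from the same fit, on 5.91 degrees of freedom. The fit was run on simulated arrays with planted changes and independent normal noise. This checked the estimated sizes only, since no effect of slide, row or cell content was simulated. Of 29786 probes with a RefSeq accession, 28331 were named through a gene table of GRCm38.p6. All 10 members were found in the promoter table. The members and lists were chosen with earlier results of these data known. The text names all members, the 3 genes of each list with the smallest p, the 3 genes nearest to Bcl2, Mcl1, Bcl2l11 and Bbc3, and a few genes said to be chosen after their values were seen. Alternatives covered normalization, background correction, dim probes, probe choice, slide, replicate number, variance model, array weights and each array left out.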

Additional observations from a re-analysis of the deposited data

How the results depend on the processing

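Over 18 alternatives, of which slide row as a block was added after the data were seen, 0 members were called in each, as in the main setting. The smallest adjusted p of any member's probe was 0.807 (limma), and of any gene named from the lists 0.480. The median over the members was -0.26 under median centring and -0.27 with slide as a block, and it ran from -0.27 to -0.023 when single arrays were left out. Of 533 log2 fold changes recomputed, 509 kept direction and side of the threshold and 24 changed sign. The first probes of Bcl2, Bcl2l1, Mcl1 and Bbc3 kept their sign throughout. The 509 include values whose sign could not change. Other filters on dim probes, the replicate block, slide row as a block and the trended variance leave the log2 fold change as it was. So does averaging probes where a gene has 1 probe. Slide as a block and leaving out WT replicate 1 are the same fit, and both are counted. Median centring turned the second probes of Bcl2l1 (-0.075), Bcl2l2 (-0.047) and Bad (-0.011). Slide as a block turned Bcl2l2 (-0.35 and -0.33), the second probes of Bad (-0.15) and Bcl2l11 (-0.041), and Naip1 (-0.11). With single arrays left out, values that changed sign ran from -0.77 to 0.38 for Bax, from -0.34 to 0.093 for Bak1, from -1.52 to 0.32 for Bid, from -0.41 to 0.086 for Bad, from -0.065 to 0.45 for Bcl2l11, from -0.35 to 0.45 for Bcl2l2 and from -0.11 to 0.59 for Naip1. For second probes they ran from -0.13 to 0.15 (Bcl2l1), from -0.33 to 0.32 (Bcl2l2), from -0.24 to 0.36 (Bad) and from -0.041 to 0.54 (Bcl2l11). The cause was not tested. Naip1 and Tnf had no value where probes had to be above background on all 6 arrays, nor second probes where a gene's probes were averaged. Over all probes limma called 1 in the main setting and in 5 alternatives and 0 in 13, with 2236 to 3194 probes at an unadjusted p under 0.05 (2609 in the main setting).

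Replicate numbers are shared by the genotypes, but deviations of same-numbered arrays correlated at only 0.02 to 0.13 over probes, so the numbers were not taken as pairs. With the replicate block, 0 members were called, the median over the members was -0.16, and the calls in the whole table went from 1 to 0. The SE of Bax was 0.27 and that of Bid 0.67 with this block, against 0.68 and 1.01 without it. The median SE over all genes was 0.32 with the block and 0.38 without it. The interval lay within 2-fold for 5 of 10 members with the block, against 31.8% of all genes. WT replicates 1 and 2 and Tg replicate 1 did not correlate best with their own number.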
